A study of Mus musculus with 6 samples.

Results

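Cathepsins and legumain are the proteases that digest proteins inside endosomes and lysosomes, the acidic compartments in which dendritic cells prepare antigen for presentation. The 10 mouse genes described here were taken from a list of such proteases, by enzyme family: the cysteine cathepsins *Ctsb*, *Ctsc*, *Ctsh*, *Ctsl*, *Ctss* and *Ctsz*, the aspartic cathepsins *Ctsd* and *Ctse*, the serine carboxypeptidase *Ctsa* and the asparaginyl endopeptidase *Lgmn* (legumain). All 10 were found among the 54532 genes listed, and all 10 were among the 12894 genes with enough reads to be tested. RNA was measured in conventional type 1 dendritic cells (cDC1s), which take up dead cells and present their antigens to CD8 T cells. The cells were grown from mouse bone marrow with FLT3L at 80 ng/mL until day 8 and sorted as CD24+ CD11c+ cells lacking B220, CD115 and CD172a. Of the 6 libraries, 3 were c-Jun/JunB fl/fl (fl/fl 1 to 3), with both AP-1 genes floxed and intact. The other 3 carried the same floxed alleles with Itgax-Cre (Δ/Δ 1 to 3), in which Cre driven by the *Itgax* (CD11c) promoter acts on both genes once a cell switches that promoter on. Per the study's methods the mice were of mixed 129 Sv and C57BL/6 background, of both sexes and 8 to 16 weeks old. The labels do not tie each library to a mouse of its own, though a figure legend of the study describes the dots for these samples as individual mice. The p-values measure the spread between these libraries.

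Endosomal proteases act in steps. They are made as inactive precursors, are carried from the Golgi by sorting receptors such as the mannose 6-phosphate receptors, and become active as the compartment is acidified by the vacuolar ATPase. In dendritic cells they cut antigens into peptides and remove the invariant chain (CD74) from MHC class II molecules, a task in which cathepsin S performs the last cut. Cystatins and stefins bind and block the cysteine cathepsins.

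The proteases cut by different chemistry, which can be read from the codon of the amino acid that carries out the cut. Stretches of 30 coding bases around that codon are shown for the 2 aspartic cathepsins, whose genotype differences had opposite signs, and for the most abundant cysteine cathepsin and legumain. They are GENCODE M21 principal transcripts on GRCm38, 5′ to 3′, with the codon for the catalytic residue in capitals. Each aspartic cathepsin has a pair of such codons, 1 in each lobe of the enzyme.
Ctse, first aspartate, exon 4 of 10, plus strand, chr1:131663359-131663388: actgtcatctttGACaccggttcatccaac
Ctse, second aspartate, exon 8 of 10, plus strand, chr1:131672247-131672276: caggccatagtgGACacagggacctctctc
Ctsd, first aspartate, exon 3 of 9, minus strand, chr7:142383464-142383493: acagtcgtctttGATactggctcctctaac
Ctsd, second aspartate, exon 7 of 9, minus strand, chr7:142377098-142377127: gaggctattgtgGACacagggacatctctt
Ctss, cysteine, exon 5 of 8, plus strand, chr3:95545336-95545365: tcttgtggtgccTGCtgggctttcagtgct
Lgmn, cysteine, exon 8 of 14, minus strand, chr12:102401913-102401942: tacattgaagctTGTgagtctggctccatg
*Ctsd* and *Ctse* use the same chemistry and share the residues aspartate, threonine and glycine at both places.

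Between 21693217 and 26788296 reads fell on genes per library, and 3 reads, taken as the floor, correspond to 0.111 to 0.14 CPM (counts relative to library size, scaled by edgeR's TMM factors). Floors cover counting error only. Of the targeted genes, *Jun* (c-Jun) had 62.2 ± 9.26 CPM in fl/fl, against 51.0 ± 8.46 CPM in Δ/Δ libraries (SD, n = 3 each; log2 fold change −0.29, edgeR adjusted p = 0.345), and *Junb* had 334 ± 71.5 and 164 ± 50.9 CPM (−1.02, edgeR adjusted p = 0.0729). Neither passed the test, and their reads are no measure of the deletion, since the sources used here do not give the removed segment. The cDC1 gene *Irf8* stood at 2712 CPM in fl/fl, against 2795 CPM in Δ/Δ libraries. It does not stand for all 9 cDC1 genes listed, of which 5 had a negative and 4 a positive log2 fold change. Each Δ/Δ library lay below every fl/fl library for *Xcr1* (means 446 and 167 CPM), *Tlr3* (469 and 276), *Cd24a* (493 and 399) and *Wdfy4* (3692 and 3051). For *Cadm1* each lay above (224 and 280 CPM). Of the 9, only *Xcr1* and *Tlr3* passed the test, against 3.88% of all genes tested. Summed markers of cDC2s and of plasmacytoid DCs were higher in each Δ/Δ library than in any fl/fl library, and the sums were not tested. The 7 cDC2 genes together had 196 to 296 CPM in fl/fl, against 479 to 653 CPM in Δ/Δ libraries. The 5 plasmacytoid DC genes together had 186 to 199 CPM in fl/fl, against 215 to 254 CPM in Δ/Δ libraries. By sign, 6 of these 7 and 4 of these 5 genes were higher in Δ/Δ libraries. The plasmacytoid DC gene *Bst2* was lower in each Δ/Δ library than in any fl/fl library (100.3 ± 10.2 and 75.7 ± 4.51 CPM, edgeR adjusted p = 0.0572). In sorted bulk cells, a different share of cells and a different amount of RNA per cell cannot be told apart.

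*Ctse* rose in Δ/Δ cDC1s, and it was the only protease of the 10 to pass the test. It encodes cathepsin E, an aspartic protease of endosomes and the endoplasmic reticulum found in antigen-presenting and gastric cells. *Ctse* (ENSMUSG00000004552.16, chr1:131638306-131675505) had 21.7, 19.8 and 25.1 CPM in fl/fl 1, 2 and 3, against 199.6, 173 and 216.5 CPM in Δ/Δ 1, 2 and 3. The lowest Δ/Δ library lay far above the highest fl/fl library, and the counts behind these values were 534 to 591 reads against 3707 to 4920. The mean went from 22.2 ± 2.67 to 196.3 ± 21.9 CPM, an 8.85-fold rise (95% interval 7.26 to 10.8; log2 fold change 3.15, SE 0.12, edgeR adjusted p = 6.27e-05). Among the 12894 genes tested it ranked 5 by p, and by fold change 45 among the 128 genes called higher. No other annotated gene shared its exons on the same strand. The mice were of mixed background, and the study does not say whether both genotypes carried the same strain alleles at *Ctse*. The part of strain in this difference was not tested.

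Of the 10 genes, 1 had an adjusted p under 0.05, against 3.88% of all genes tested, and the additional limit of a 2-fold change (log2 fold change of at least 1, a call) by the same 1 gene, against 1.86%. Groups without overlap, the lowest value of one genotype above the highest of the other, were seen for 5 of the 10 (*Ctsb*, *Ctsc*, *Ctsd*, *Ctse* and *Ctsz*), against 26.0% of all genes. By sign, 7 of the 10 were higher and 3 lower in Δ/Δ libraries, with a median log2 fold change of 0.17 against 0.00 over all genes. The median size of the change, without its sign, was 0.21 against 0.16. The other 9 had adjusted p-values of 0.0604 to 0.781, and their 95% intervals all lay between −0.98 and 0.81 on the log2 scale.

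**Figure D1:**
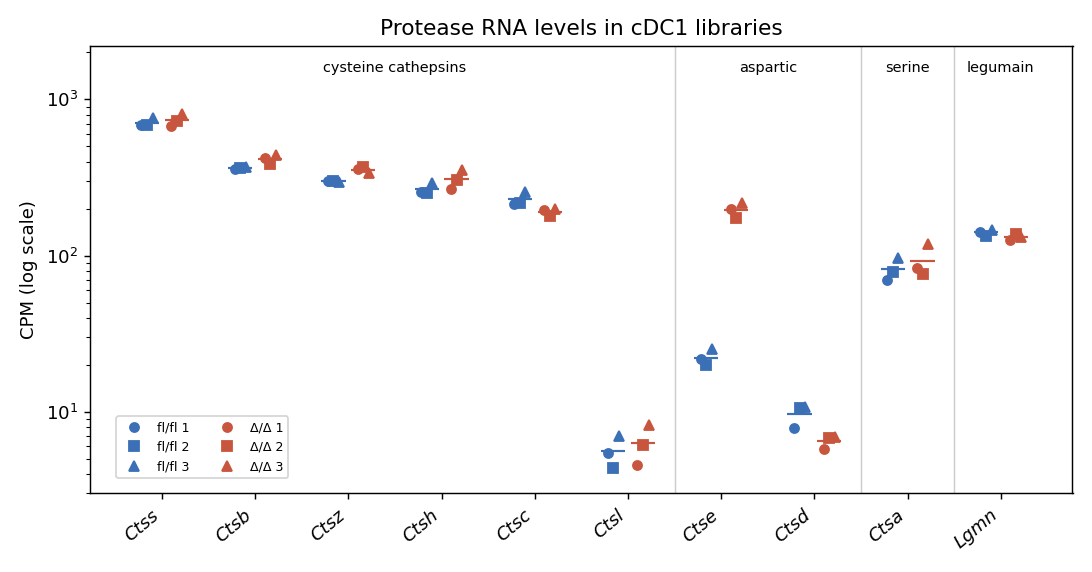
CPM (log scale) of each protease gene in each library, grouped by enzyme class; blue points are fl/fl and red points Δ/Δ libraries 1 to 3 (circle, square, triangle), and bars are group means of 3. The Δ/Δ points of Ctse sit at 173 to 216.5 CPM above fl/fl points at 19.8 to 25.1 CPM, whereas the groups of the other genes lie close together or overlap.

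The second aspartic cathepsin, *Ctsd*, did not move with *Ctse*. Cathepsin D is the main aspartic protease of lysosomes in most tissues. *Ctsd* (ENSMUSG00000007891.16, chr7:142375911-142388038) had 7.83, 10.6 and 10.7 CPM in fl/fl 1, 2 and 3, against 5.80, 6.77 and 6.87 CPM in Δ/Δ 1, 2 and 3. Every Δ/Δ library was below every fl/fl library, but the difference did not pass the test (log2 fold change −0.58, SE 0.17, 95% interval −0.98 to −0.17, edgeR adjusted p = 0.124). Its level is uncertain, since 34.4% of its exon bases are also annotated to the gene *Gm49369* on the same strand. Reads shared by a pair of genes are dropped as ambiguous, and *Gm49369*, which is listed in the count files, had 0 reads in all 6 libraries.

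Cathepsin S stood highest of all and was close to equal between genotypes. *Ctss* (ENSMUSG00000038642.10, chr3:95526786-95556403) had 683, 687 and 761 CPM in fl/fl, against 679, 727.5 and 804 CPM in Δ/Δ libraries 1 to 3. The groups overlapped, with a change of 3.73% and a 95% interval from −8.87 to 18.1% (edgeR adjusted p = 0.762). *Ctsl* encodes cathepsin L, which takes the role of cathepsin S on the invariant chain in thymic epithelium. It stood lowest, at 5.48, 4.34 and 7.04 CPM in fl/fl, against 4.59, 6.11 and 8.24 CPM in Δ/Δ libraries 1 to 3. With 117 to 187 reads per library its interval was wide (log2 fold change 0.17, −0.48 to 0.81, edgeR adjusted p = 0.781), and 6.1% of its exon bases are also annotated to *Gm49230* on the same strand.

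*Ctsz* and *Ctsb* were slightly higher in each Δ/Δ library without passing the test. *Ctsz*, which encodes cathepsin X, a carboxypeptidase, had 300.0, 300.2 and 296.7 CPM in fl/fl 1, 2 and 3, against 360.2, 370.2 and 336.1 CPM in Δ/Δ 1, 2 and 3. The fl/fl libraries were nearly alike, and the groups were 18.9% apart (95% interval 8.51 to 30.3%; edgeR adjusted p = 0.0604). This gene lay nearest to the threshold, with an adjusted p of 0.0189 in DESeq2's Wald test and 0.0468 without Δ/Δ 3, and 0.0189 to 0.241 over all alternatives. *Ctsb* encodes cathepsin B, which cuts both within chains and from their carboxyl end. It had 356.2, 361.7 and 368.0 CPM in fl/fl, against 420.9, 387.9 and 443.4 CPM in Δ/Δ libraries 1 to 3, a difference of 15.3% (95% interval 4.0 to 27.8%; edgeR adjusted p = 0.135).

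*Ctsc* and *Ctsh*, the aminopeptidases of the group, had differences of opposite sign. *Ctsc* encodes cathepsin C, a dipeptidyl peptidase that activates the serine proteases of granules. It had 215.4, 217.7 and 255.2 CPM in fl/fl, against 196.7, 179.1 and 198.7 CPM in Δ/Δ libraries 1 to 3 (log2 fold change −0.26, SE 0.08, edgeR adjusted p = 0.151), without overlap of the groups. *Ctsh*, for cathepsin H, had 254.8, 251.9 and 290.9 CPM in fl/fl, against 266.4, 306.5 and 354.3 CPM in Δ/Δ libraries 1 to 3 (log2 fold change 0.22, SE 0.11, edgeR adjusted p = 0.343), and its groups overlapped.

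*Lgmn* and *Ctsa* overlapped between genotypes. Legumain cuts after asparagine and helps to activate other cathepsins. *Lgmn* (ENSMUSG00000021190.14, chr12:102394084-102439813) had 141.8, 134.3 and 146.1 CPM in fl/fl, against 125.4, 138.4 and 132.0 CPM in Δ/Δ libraries 1 to 3 (log2 fold change −0.09, 95% interval −0.24 to 0.05, edgeR adjusted p = 0.460). *Ctsa* encodes a carboxypeptidase that also protects lysosomal beta-galactosidase and neuraminidase. It had 69.9, 78.7 and 96.9 CPM in fl/fl, against 82.7, 76.3 and 118 CPM in Δ/Δ libraries 1 to 3 (log2 fold change 0.17, 95% interval −0.26 to 0.61, edgeR adjusted p = 0.653). Without Δ/Δ 3, the library with the highest *Ctsa*, *Ctsl*, *Ctss*, *Ctsh*, *Ctsb* and *Ctse* values, the signs of *Ctsa*, *Ctsl* and *Ctss* turned (−0.04, −0.07 and −0.02 on the log2 scale) and the median of the 10 genes was −0.03.

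**Figure D2:**
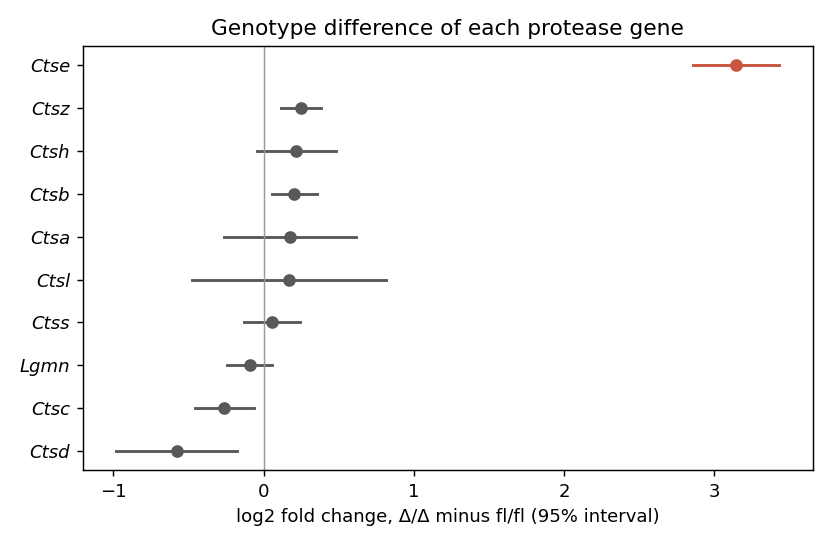
Log2 fold change (Δ/Δ minus fl/fl) of each protease gene with its 95% interval from the edgeR fit to 3 libraries per genotype; red marks an adjusted p under 0.05 over all genes. Ctse lies at 3.15 (2.86 to 3.43), and the intervals of the other 9 lie between −0.98 and 0.81.

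Levels of different genes were compared as CPM per kb of exon, which removes the effect of gene length. In fl/fl cDC1s *Ctss* led with 523 ± 32.1 CPM per kb, followed by *Ctsz* with 207.5 ± 1.36. *Lgmn* (60.6), *Ctsb* (59.8) and *Ctsh* (59.1) came next and did not differ from their neighbours beyond the spread of the libraries. Below them were *Ctsc* (39.5), *Ctsa* (17.4), *Ctse* (7.0 ± 0.842), *Ctsd* (4.12) and *Ctsl* (0.866). The place of *Ctsd* is uncertain, since 34.4% of its exon bases are shared with *Gm49369* and such reads are dropped. In Δ/Δ cDC1s *Ctss* (543) and *Ctsz* (247) again led, and *Ctse* with 61.9 ± 6.92 CPM per kb now stood in the group of *Ctsb* (69.0), *Ctsh* (68.7) and *Lgmn* (56.8), each overlapping its neighbour. *Ctsc* (33), *Ctsa* (19.6), *Ctsd* (2.76) and *Ctsl* (0.973) followed. Among all 12894 genes tested, *Ctse* went from rank 5820 to rank 678 by level per length, while *Ctss* was at rank 63 and rank 57.

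The order in the middle depends on which transcript sets the length. With the longest principal transcript in place of all exons, a choice made after the data had been seen, fl/fl levels were 164 for *Ctsh*, 92.0 for *Ctsc*, 76.3 for *Ctsb* and 70.7 CPM per kb for *Lgmn*. *Ctse* stayed at place 8 in fl/fl (10.4 CPM per kb) and stood at place 4 in Δ/Δ libraries (92.4 CPM per kb).

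**Figure D3:**
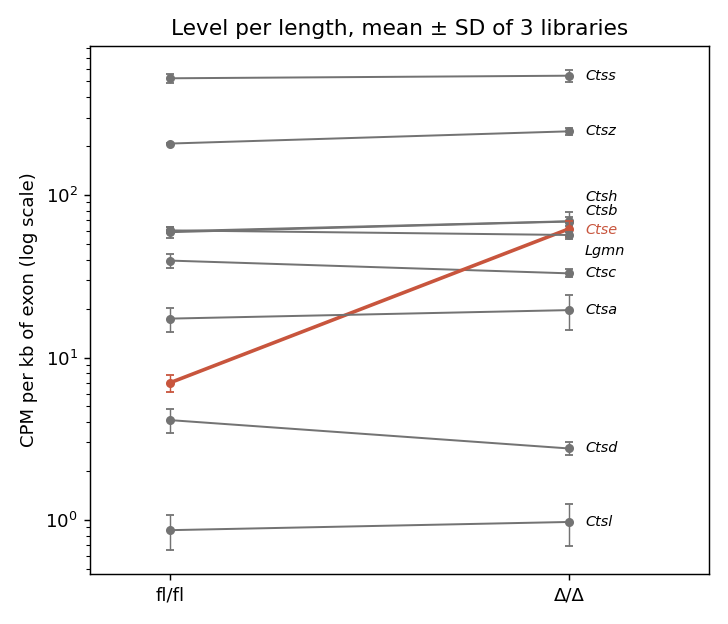
Mean level of each protease gene in CPM per kb of exon (log scale) in fl/fl and Δ/Δ libraries, with bars for the SD of 3 libraries; each line joins 1 gene, and Ctse is red. Ctse goes from 7.0 to 61.9 CPM per kb, crosses Ctsa and Ctsc and reaches Ctsb, Ctsh and Lgmn.

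Of the summed level per length of the 10 genes, *Ctse* made up 0.720, 0.655 and 0.766% in fl/fl 1, 2 and 3 and 5.99, 5.01 and 5.86% in Δ/Δ 1, 2 and 3. The share of *Ctss* was 53.4 ± 0.757% and 49.2 ± 1.6%, so *Ctss* stood 75.1 times above *Ctse* per length in fl/fl and 8.81 times in Δ/Δ libraries. Relative to the TMM-scaled library size, the 10 genes together took 0.206 to 0.226% in fl/fl and 0.234 to 0.262% in Δ/Δ libraries. Their summed level was 2057, 2066 and 2257 CPM in fl/fl, against 2342, 2372 and 2618 CPM in Δ/Δ libraries 1 to 3. Without *Ctse* it was 2035, 2047 and 2232 against 2142, 2199 and 2402 CPM, and these groups overlapped.

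Of 14 further cathepsin genes, 9 had no read in any library (*Ctsj*, *Ctsm*, *Ctsq*, *Ctsr*, *Cts3*, *Cts6*, *Cts7*, *Cts8* and *Ctsll3*), and *Ctsf*, *Ctsg*, *Ctsk* and *Ctsw* had too few to be tested. The 1 tested, *Ctso*, had 21.9 ± 0.804 CPM in fl/fl, against 16.7 ± 2.80 CPM in Δ/Δ libraries (a log2 fold change of −0.39, edgeR adjusted p = 0.185).

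Among genes that sort proteases into lysosomes, make up the lysosomal membrane or control lysosomal genes, 1 of 12 rose and 1 fell. Over all genes tested, 3.88% passed in either direction. *Igf2r*, the cation-independent mannose 6-phosphate receptor, which carries newly made lysosomal enzymes to endosomes (chr17:12682406-12769664), had 89.4, 76.8 and 69.1 CPM in fl/fl 1, 2 and 3, against 14.7, 15.8 and 8.11 CPM in Δ/Δ 1, 2 and 3. The groups were far apart (log2 fold change −2.61, SE 0.24, 95% interval −3.19 to −2.04, edgeR adjusted p = 0.00380). *M6pr*, the smaller cation-dependent receptor for the same tag, had 453 ± 22.3 and 436 ± 45.0 CPM (log2 fold change −0.06, 95% interval −0.26 to 0.15, edgeR adjusted p = 0.770). *Sort1* encodes sortilin, which carries some lysosomal proteins without that tag. It had 31.8, 28.4 and 34.1 CPM in fl/fl, against 45.4, 81.6 and 70.5 CPM in Δ/Δ libraries 1 to 3 (log2 fold change 1.07, SE 0.21, edgeR adjusted p = 0.0370). *Igf2r* had an adjusted p under 0.05 in all 12 alternatives with a test. *Sort1* was above 0.05 in 6 of them: without each single fl/fl library (adjusted p 0.110 to 0.186), without Δ/Δ 3 (0.0938), with a replicate block (0.0578) and in limma-voom (0.0514). Without Δ/Δ 2 it passed (0.0465) at a log2 fold change of 0.88, under the limit of a call.

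The enzymes that build the mannose 6-phosphate tag (*Gnptab*, *Gnptg* and *Nagpa*), the membrane proteins *Lamp1*, *Lamp2* and *Scarb2* and the transcription factors *Tfeb*, *Tfe3* and *Mitf*, which switch on lysosomal genes, did not pass the test. *Tfe3* had the lowest adjusted p of these (62.8 ± 3.04 and 75.8 ± 6.39 CPM, log2 fold change 0.27, edgeR adjusted p = 0.121; 0.0440 without Δ/Δ 1).

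Of 7 other lysosomal peptidases and reductases, 1 rose and 1 fell, against 3.88% of all genes tested that passed in either direction. *Cpq*, a carboxypeptidase, had 49.7, 47.2 and 46.6 CPM in fl/fl, against 26.3, 22.9 and 18.9 CPM in Δ/Δ libraries 1 to 3 (log2 fold change −1.07, SE 0.12, edgeR adjusted p = 0.00672). *Dpp7*, which removes dipeptides that end in proline or alanine, had 40.5, 42.5 and 35.2 CPM in fl/fl, against 55.6, 66.5 and 56.8 CPM in Δ/Δ libraries 1 to 3 (log2 fold change 0.60, SE 0.10, edgeR adjusted p = 0.0260). *Ifi30*, the thiol reductase that opens disulfide bonds of antigens, had 82.9 ± 5.24 and 144 ± 45.5 CPM (log2 fold change 0.80, edgeR adjusted p = 0.0825; 0.0140 without Δ/Δ 1 and 0.0353 without Δ/Δ 2). *Cpq* had an adjusted p under 0.05 in every alternative with a test, up to 0.0497, and without Δ/Δ 3 its log2 fold change was −0.96, under the limit of a call. *Dpp7* no longer passed without each single fl/fl library and without Δ/Δ 3 (adjusted p 0.0529 to 0.131).

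Of 14 cystatins, stefins and other inhibitors, 8 were tested. Of these, 3 fell and none rose, against 3.88% of all genes tested that passed in either direction. These 3 were all low. *Cst7*, for cystatin F, an inhibitor that itself enters endosomes, had 1.62 ± 0.280 CPM in fl/fl, against 0.455 ± 0.0982 CPM in Δ/Δ libraries, from 35 to 45 and 9 to 12 reads (log2 fold change −1.82, SE 0.33, edgeR adjusted p = 0.0288). *Stfa2*, a stefin of the cytosol, had 2.93 ± 0.618 and 1.12 ± 0.213 CPM (log2 fold change −1.39, edgeR adjusted p = 0.0446). *Ctla2b*, which resembles the propeptide of cathepsin L, had 9.24 ± 1.59 and 4.45 ± 0.690 CPM (log2 fold change −1.05, edgeR adjusted p = 0.0349), with 31.3% of its exon bases free of other genes on the same strand. None of these 3 passed without any single fl/fl library or without Δ/Δ 3 (adjusted p 0.0784 to 0.202). *Stfa2* and *Ctla2b* did not pass without Δ/Δ 2 either (0.0627 and 0.0506), *Cst7* and *Stfa2* not with a replicate block (0.0676 and 0.071), and *Stfa2* not in limma-voom (0.0521). By sign, 5 of the 8 tested were lower and 3 higher in Δ/Δ libraries. *Stfa2l1*, another stefin, was higher without passing (1.24 ± 0.337 and 2.785 ± 0.964 CPM, log2 fold change 1.17, edgeR adjusted p = 0.127). The abundant *Cst3*, for the secreted cystatin C, had 7252 ± 197.7 and 8153 ± 895.4 CPM (log2 fold change 0.17, edgeR adjusted p = 0.328).

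**Figure D4:**
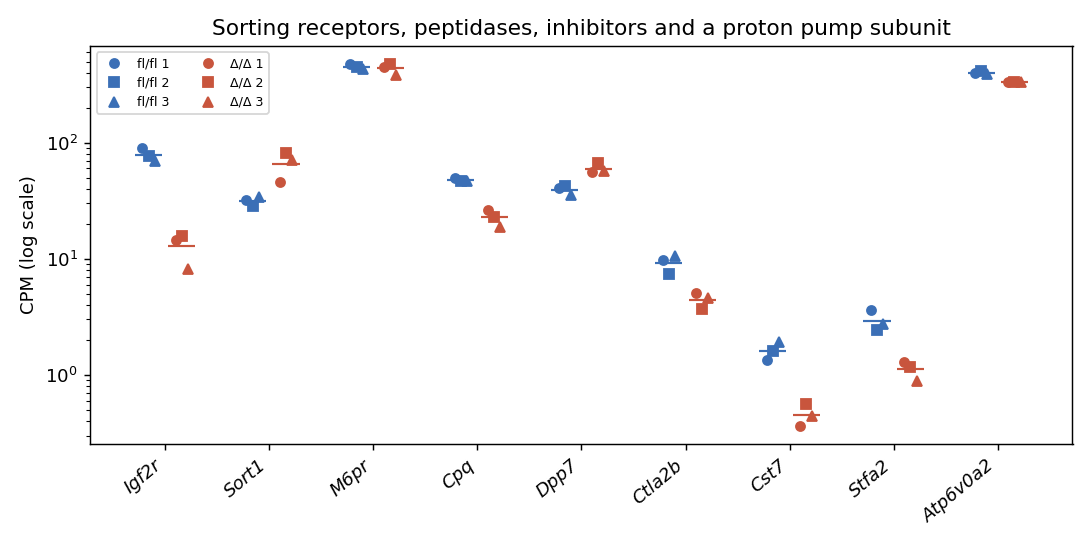
CPM (log scale) in each library of the sorting receptors Igf2r, Sort1 and M6pr, the peptidases Cpq and Dpp7, the inhibitors Ctla2b, Cst7 and Stfa2 and the proton pump subunit Atp6v0a2; blue is fl/fl, red Δ/Δ, and bars are means of 3 libraries. Igf2r falls from 78.4 to 12.8 CPM on average, while M6pr overlaps between genotypes. The other 7 genes do not overlap, against 26.0% of all genes tested without overlap. All genes shown except M6pr were chosen for passing the test, so their lack of overlap adds no support.

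Of 17 subunits of the vacuolar ATPase, which acidifies endosomes, 16 were tested. None of these rose and 1 fell, against 3.88% of all genes tested that passed in either direction. The 1 that fell was *Atp6v0a2*, from 402 ± 10.6 to 336 ± 0.829 CPM (log2 fold change −0.26, SE 0.05, edgeR adjusted p = 0.0358). It did not pass without each single fl/fl library, without Δ/Δ 3 (adjusted p 0.0711 to 0.185) or with a replicate block (0.0676). *Atp6v0a1*, which encodes another form of the same subunit, had 61.7 ± 1.18 and 97.4 ± 20.4 CPM (log2 fold change 0.66, edgeR adjusted p = 0.0572). It passed in DESeq2's Wald test (adjusted p 0.000539), with no filter (0.0165) and without Δ/Δ 1 (0.0025). *Atp6v0d2*, too low to be tested, had 10, 7 and 15 reads in fl/fl 1, 2 and 3 and 0 in each Δ/Δ library. None of the 9 MHC class II and invariant chain genes passed the test, although all 9 were higher in Δ/Δ libraries, with a median log2 fold change of 0.21. The nearest to the threshold was *H2-Ob*, which encodes a chain of the peptide-loading regulator H2-O, with 530 ± 44.7 and 729 ± 101.8 CPM (log2 fold change 0.46, edgeR adjusted p = 0.0720). It passed in DESeq2's Wald test (adjusted p 0.00276), with no filter (0.0283), with a replicate block (0.0246) and without Δ/Δ 1 (0.0170). *Cd74*, the invariant chain that cathepsin S and legumain cut, had 12290 ± 586 and 14490 ± 1286 CPM (log2 fold change 0.24, edgeR adjusted p = 0.166; 0.0204 without Δ/Δ 1).

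In the genome, 39 tested genes lay within 100 kb of 1 of the 10 proteases. Of these, 1 passed the test, against 3.88% of all genes tested. It was *Rab7b*, 13190 bases from *Ctse*, which encodes a small GTPase of transport from endosomes to the Golgi (chr1:131688695-131715439). It had 929.3, 864.2 and 868.4 CPM in fl/fl, against 726.0, 666.1 and 632.6 CPM in Δ/Δ libraries 1 to 3 (log2 fold change −0.40, SE 0.07, edgeR adjusted p = 0.0253), and so fell where *Ctse* rose. The study names *Rab7b* among cDC1-specific genes reduced in these Δ/Δ cells, though it was not on the cDC1 list used here. *Rab7b* did not pass without each single fl/fl library or without Δ/Δ 3 (adjusted p 0.0567 to 0.137). The other tested neighbours of *Ctse*, *Gm8532* and *Fam72a*, had adjusted p-values of 0.855 and 0.317.

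RefSeq promoter windows (GRCm38.p6, 250 bases before to 50 after a transcription start) were found for 7 of the 10 genes, 9 windows in all, and for *Ctsb*, *Ctse* and *Ctsh* none were matched. The AP-1 motif TGANTCA was searched on both strands, which read alike. It was in 0 of the 9 windows and in 7.81% of all 32851 windows. CACGTG, the E-box letters that TFEB and related factors can bind, was in 4 of the 9 windows (*Ctsa*, *Ctsd*, *Ctsl* and *Lgmn*) and in 7.15% of all windows. These matches describe letters in the windows and not sites in use.

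Markers of other cells were read beside *Ctse*. Each count below stands beside the 3.88% of all genes tested that passed in either direction. Among cDC2 genes, 3 of 7 rose (*Cd209a*, *Klf4* and *Cd4*), with *Cd209a*, a C-type lectin, going from 49.2 ± 17.4 to 234 ± 36.2 CPM. *Sirpa*, which encodes the CD172a used to sort cells out, had 50.1 ± 9.0 and 43.4 ± 3.11 CPM. Among cDC1 genes, 2 of 9 fell, *Xcr1* (446 ± 27.1 to 167 ± 40.7 CPM) and *Tlr3*, and none rose. The 9 together had 8510 to 8620 CPM in fl/fl, against 7060 to 8320 CPM in Δ/Δ libraries. Among 5 plasmacytoid DC genes *Ccr9* rose, and of 5 tested monocyte and macrophage genes *Adgre1* rose, with sums over the 7 listed of 30.7 to 41.0 and 47.7 to 68.5 CPM. Genes of mature DCs summed to 505 to 770 CPM in fl/fl, against 91.5 to 1480 CPM in Δ/Δ libraries, lowest in Δ/Δ 1 and highest in Δ/Δ 2, while *Ctse* lay at 199.6 and 173 CPM there. None of 7 immediate early genes passed the test (sums of 181 to 360 and 302 to 1080 CPM). Of the neutrophil genes (sums of 4.59 to 21.0 and 0.852 to 8.03 CPM) 4 were tested, and of the B cell genes (18.7 to 30.0 and 12.7 to 49.3 CPM) 5, and none of these passed. Of the T and NK cell genes (0.887 to 0.976 and 0.487 to 1.06 CPM) 1 was tested and did not pass. The 4 basophil and mast cell genes were too low to be tested, and their sum was higher in each Δ/Δ library (0.730 to 14.0 CPM) than in any fl/fl library (0.116 to 0.371 CPM). Most of these reads lay in Δ/Δ 2, with *Mcpt8*, for example, at 5, 103 and 13 reads in Δ/Δ 1, 2 and 3. Among erythroid genes 5 of 6 had no reads, as had the neutrophil genes *Elane* and *Ly6g*. With single libraries left out, *Cd209a* and *Ccr9* passed each time, while *Klf4*, *Cd4*, *Adgre1*, *Tlr3* and *Xcr1* did not pass at least once, without fl/fl 1 in each case (adjusted p 0.0569 to 0.158). The part of these markers in the *Ctse*, *Igf2r* and *Cpq* values was not tested.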

How the data were processed

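The authors deposited raw counts, the number of uniquely mapped reads per gene that STAR 2.6.1a gave in 2-pass mode on mm10 with Gencode vM19, 1 file per library, not normalized. Reads that lie on several genes at once are dropped by this counting, which lowers genes with shared exons. The sources used here do not give the strand column. Counted over either strand, the exon bases free of other genes were 73.2% for *Ctsl*, 82.6% for *Ctsa* and 87.2% for *Ctsb*. Of all reads, 79.1 to 79.7% were on genes and 1.81 to 1.98% were ambiguous, and the tallies outside genes stayed out of library sizes. Names and coordinates came from GENCODE M21 (GRCm38), which held 54495 of the 54532 identifiers.

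Counts were tested with edgeR 4.0.16 in R 4.3.3 (TMM, filterByExpr with a minimum count of 10 and total of 15, quasi-likelihood test on genotype, Benjamini-Hochberg over 12894 genes). Values per gene are CPM with SD over 3 libraries. Alternatives were DESeq2 size factors, the Wald test of DESeq2 1.42.0, limma-voom 3.58.1, no filter, a stricter filter (at least 10 reads in 3 libraries and a mean of 1 CPM), a replicate block and each library left out. The fit was tested on simulated counts for this comparison: of 200 genes given a log2 change of 2 among 12894, edgeR recovered 186 and made 6 false calls. The simulation gave both genotypes the same spread, so it does not cover unequal spread or smaller changes. Library pairs differed by more than sampling noise, and Δ/Δ pairs more than fl/fl pairs. Chi-square per degree of freedom was 6.35 to 10.4 in fl/fl and 27.9 to 38.5 in Δ/Δ pairs. The test takes the spread as shared by both genotypes.

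The genes named were the 10 proteases, members of the lists that passed the adjusted p, *Jun*, *Junb* and tested neighbours within 100 kb. Other list genes (*M6pr*, *Tfe3*, *Ifi30*, *Cst3*, *Stfa2l1*, *Atp6v0a1*, *Atp6v0d2*, *H2-Ob*, *Cd74*, *Ctso*, *Irf8*, *Cd24a*, *Wdfy4*, *Cadm1*, *Sirpa*, *Bst2*, *Mcpt8*) were named after their values were seen. The proteases and lists were chosen with earlier results of these data known.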

Additional observations from a re-analysis of the deposited data

How the results depend on the processing

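The rise of *Ctse* kept its direction and its call under all 12 alternatives with a test (log2 fold change 3.07 to 3.24, adjusted p at most 0.00235), as did the fall of *Igf2r* (−2.78 to −2.37). *Cpq* kept an adjusted p under 0.05 (−1.19 to −0.96), but without Δ/Δ 3 its −0.96 was under the limit of a call. The number of proteases with an adjusted p under 0.05 was 1, and 2 under DESeq2's Wald test, which added *Ctsz*; with 1 library left out it was 1 to 2. The number called was 1 throughout. The median log2 fold change of the 10 ran from −0.028 to 0.229 with 1 library left out. Without Δ/Δ 3, *Ctsl* (−0.072), *Ctss* (−0.015) and *Ctsa* (−0.042) turned sign, and their highest values with 1 library left out were 0.36, 0.11 and 0.311. The other lists held 12 sorting, 7 peptidase, 8 inhibitor, 16 proton pump, 9 MHC class II genes and 1 other cathepsin gene tested in the main fit. Of the genes on these lists, 8 passed the adjusted p, against 3.88% of all genes tested. Under DESeq2's Wald test 14 passed, with no filter 14, and with 1 library left out 2 to 17 (2 without each fl/fl library or Δ/Δ 3, 17 without Δ/Δ 1). Over all genes 240 were called, 433 by DESeq2's Wald test, 356 with no filter, and 74 to 579 with 1 library left out; 500 passed the adjusted p, against 1097, 762 and 95 to 1320. The cause was not tested. *Junb* passed with DESeq2 (adjusted p 0.0203), no filter (0.0161), a replicate block (0.037) and Δ/Δ 1 left out (0.0359).

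Same-numbered libraries had correlations of their deviations of 0.091, −0.148 and 0.2, against −0.221 to 0.152 for differently numbered ones. Not every library correlated best with its own number. Correlations from so few libraries show no clear pairing but cannot exclude one. The SE of *Ctse* was 0.062 with a replicate block and 0.122 without it, and that of *Lgmn* 0.068 and 0.063. With a replicate block 1 protease passed (*Ctse*, log2 fold change 3.15, adjusted p = 0.000253 by edgeR), the median of the 10 was 0.16, 7 genes of the other lists passed, and 207 of all genes were called.

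Low counts limit *Ctsl*, *Ctsd* and *Cst7*, and exons shared on the same strand *Ctsd* and *Ctla2b*. If the counts ignore strand, shared exons also limit *Ctsl*, *Ctsa* and *Ctsb*.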
